A study of Glycine max with 10 samples.

Results

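Transcripts of whole soybean seeds (Glycine max, cultivar Evans) at 50 days after flowering (DAF) were compared with those at 25 DAF, the last and the first age of the series. The comparison rests on 4 of the 10 Affymetrix soybean arrays, 2 of each of the 2 ages, chosen by the age in the sample labels, and on all 37593 probe sets. All plants carried the same genotype and grew in one field without a treatment, so age is the only factor that the labels set between the groups. The part of field conditions at each harvest was not tested. Each replicate drew on pods pooled from several plants, and more seeds were pooled for RNA at 25 than at 50 DAF. The other 6 arrays, at 30, 40 and 45 DAF, entered the model for its estimate of the spread. These are bulk samples, in which fewer cells of a type and less RNA per cell cannot be told apart.

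At the earlier age a soybean seed is green and fills its cotyledons with storage protein, oil and transient starch. Late in maturation the embryo stops filling, loses chlorophyll and prepares for drying, and late embryogenesis abundant (LEA) proteins, small heat shock proteins and raffinose-type sugars are known to accumulate then. Abscisic acid promotes this program in seeds, while gibberellin opposes it and favours germination.

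The values are signals of Microarray Suite, on a linear scale, and are uncertain when low. Array medians as deposited were 303.8 and 306.7 at 25 DAF but 220.8 and 222.8 at 50 DAF, a shift of -0.46 on the log2 scale in both replicates. The share of probe sets under a deposited signal of 50 was 20% and 18.4% at 25 DAF and 25% and 26.5% at 50 DAF. Signals printed below were scaled so that every array has a median of 309.9, which raised the 50 DAF arrays by factors of 1.404 and 1.39 and the 25 DAF arrays by 1.02 and 1.01. Since the scaling decides where 0 lies, calls are given both for log2 signals centred on the array median and for the values as deposited. After scaling, the upper quartile was 1010 and 1000 at 25 DAF and 1360 and 1330 at 50 DAF, whereas the lower quartile was 71.7 and 78.4 against 70.1 and 63.6, so the upper part of the distribution was wider at the later age. The 99th percentile was 21200 and 21900 at 25 DAF and 28800 and 29400 at 50 DAF. Whether signals above it still follow transcript amounts was not tested. Replicates correlated at 0.9271 at 25 DAF and 0.9188 at 50 DAF, and arrays of different age and the same replicate number at 0.7262 and 0.7307.

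With centring, 9238 probe sets (24.6%) were higher and 7266 (19.3%) lower at 50 than at 25 DAF by limma's moderated test at an adjusted p under 0.05. As deposited, 6396 (17%) were higher and 10069 (26.8%) lower. The higher ones thus made up 56% of the calls with centring, 38.8% as deposited and 46.6% after quantile normalization, so which direction prevailed depends on the scaling. The calls did not conflict probe set by probe set. All 6396 rises called as deposited were also called with centring, all 7266 falls called with centring were also called as deposited, and 0 probe sets were called in opposite directions. Under both scalings, 1946 rose and 2302 fell by at least 3 on the log2 scale, and 561 rose and 563 fell by at least 5. Of those 563 falls, 406 ended at a mean signal under 50, and of those 561 rises, 262 started under it, so the sizes of these changes are uncertain. The median change over all probe sets was 0.17 with centring and -0.29 as deposited.

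**Figure D1:**
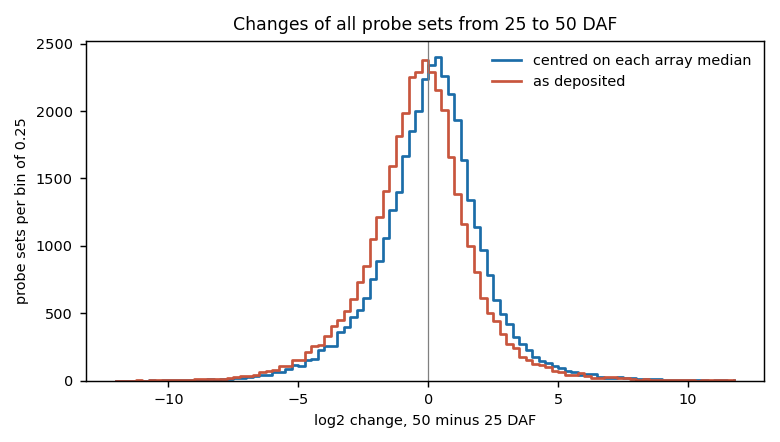
Number of probe sets in bins of 0.25 against the log2 change from 25 to 50 DAF, for the 37593 probe sets with each array centred on its median and as deposited. The curves have the same shape and lie 0.46 apart, with medians of 0.17 and -0.29.

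Gene names were known for part of the array. One symbol was paired with 8677 probe sets, several with 370 and none with 28546. Of the 743 genes with at least 2 called probe sets, 24 (3.23%) had probe sets called in both directions, among them APX1, CAB3, CHS1 and PM30. For such genes the direction depends on the probe set.

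Markers of seed parts were checked first, with calls to be read against the 24.6% of all probe sets higher and 19.3% lower with centring. For the seed coat, 5 of 6 listed names were found, and 4 of the 5 probe sets were lower. Their summed signal was 132214 and 135388 at 25 DAF and 25342 and 26304 at 50 DAF. HPS, a hydrophobic protein of the seed surface, gave 49454 and 61731 at 25 DAF and 242 and 144 at 50 DAF. It was the largest part of the sum at 25 DAF, and which tissue its transcript came from was not tested. SCB1, a BURP-domain protein of the seed coat, gave 18531 and 16010.0, then 71.6 and 63.5. The coat peroxidases PRX2 and Ep remained well above the array median at 50 DAF, with 11484 and 13903 for PRX2 and 13469 and 12189 for Ep. For cotyledon and embryo storage, 8 of 11 names were found, and of their 12 probe sets 1 was higher and 3 were lower. The higher one was of CG-1, and the lower ones were of GY3, GY5 and SBP2. Their summed signal, over all 12, was 518284 and 659538 at 25 DAF and 567609 and 465677 at 50 DAF, so the sums of the ages overlapped. Leaf and pod markers (4 of 5 names, 17 probe sets) summed to 26325 and 24442, then 19731 and 27424, also overlapping, with 3 probe sets lower and 0 higher. Rubisco activase RCA14, at 3 probe sets that did not pass, carried much of that sum. RCABETA fell by 2.84 and 2 probe sets of VSPA, a vegetative storage protein, fell by 3.37 and 3.76 on the log2 scale. The other VSPA probe sets, with changes from -3.80 to 1.48, did not pass, nor did those of VSPB. None of the listed nodule and cell division names was matched, so these tissues and processes were not examined through markers. The part of the seed coat in the changes below was not tested.

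The class with the highest median change was that of desiccation tolerance. Of 39 probe sets of LEA, dehydrin and seed maturation proteins, which protect cells during drying, 35 were higher and 2 lower, against 24.6% and 19.3% of all probe sets. As deposited, 29 were higher and 2 lower, against 17% and 26.8% of all probe sets. Counts of the classes by gene symbol below are to be read against the same shares. The median change was 3.92, beside 0.17 over all probe sets. SLE2, an LEA protein of the Em type, gave 75.6 and 66.1 at 25 DAF and 83349.9 and 80105 at 50 DAF. MAT1, a dehydrin, gave 158 and 221, then 104675 and 89217. The log2 changes were 10.17 ± 0.58 and 9.02 ± 0.74 (SE, limma, adjusted p = 2.32e-05 and 6.52e-05). For both genes the ages did not overlap, but this held for 73.7% of all probe sets, and genes were named by their changes. Not all members started low. LEA5 gave 39883 and 38988 at 25 DAF and 103542 and 88886 at 50 DAF, a change of 1.28. The 2 lower probe sets belonged to PM23 and PM30, and the other PM30 probe sets were higher with centring only. LEA-2 and the second probe set of PM23 did not pass, with changes of 0.14 and -0.08. GOLS, galactinol synthase, which makes the galactosyl donor for raffinose sugars, gave 94 and 141 at 25 DAF and 29446 and 14998 at 50 DAF (log2 change 7.51 ± 0.98; limma, adjusted p = 3.61e-04).

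**Figure D2:**
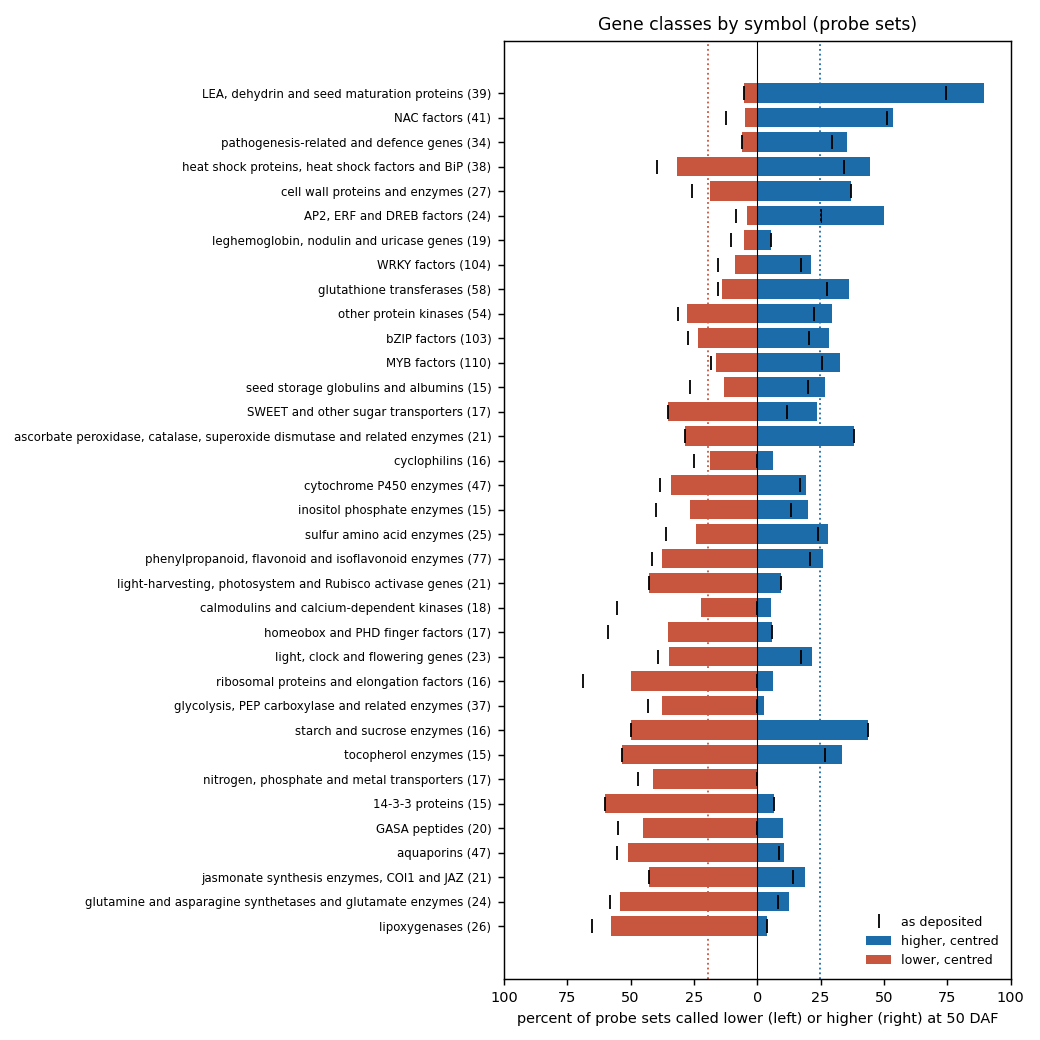
Percent of the probe sets of each gene class (number in brackets, classes of 15 or more) called higher (right) or lower (left) at 50 DAF with centring, with black ticks for the values as deposited and dotted lines at 24.6% and 19.3%, the shares over all probe sets. LEA and seed maturation proteins reach furthest to the right, and lipoxygenases, 14-3-3 proteins, glutamine and asparagine enzymes and aquaporins lie far to the left.

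Heat shock genes divided. Of 38 probe sets of heat shock proteins, heat shock factors and BiP, 17 were higher and 12 lower with centring, but 13 and 15 as deposited, so the prevailing direction flips with the scaling. The centred higher count was 11 without replicate 2 of 25 DAF or replicate 1 of 50 DAF, and the lower count dropped to 6 when replicate 1 of 25 DAF was left out and to 5 without replicate 2 of either age. The small heat shock protein HSP17.5-E gave 137 and 111 at 25 DAF and 8124 and 9278 at 50 DAF, and rose by 6.14 ± 0.73 (limma, adjusted p = 2.39e-04). Among heat shock factors, which switch these genes on, HSF-14 stood at 323 and 261, then 3079 and 3364, while HSF-08 stood at 1839 and 2084, then 246 and 275. These opposite changes were 3.47 and -2.91 in log2, a pair that follows from naming the largest changes in each direction of the class. BiP chaperones of the endoplasmic reticulum were among the lower members. BIP4 gave 14529.5 and 13729.6 at 25 DAF and 2166 and 1522 at 50 DAF, a change of -2.96 that passed (limma, adjusted p = 0.0145) but was lost when any 1 array of the 2 ages was left out (highest adjusted p over all alternatives 0.131).

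Protein disulfide isomerases, which form disulfide bonds in storage proteins in the endoplasmic reticulum, were lower in 9 of 11 probe sets and higher in 0, under either scaling, with a median change of -2.63. PDIL-1 (LOC100170705) gave 50792 and 61420.3 at 25 DAF and 2222 and 1433 at 50 DAF. PDIM-1 gave 5712 and 5237, then 1197 and 650.3. Both fell, by 4.97 ± 0.50 and 2.63 ± 0.40 on the log2 scale (limma, adjusted p = 1.17e-04 and 7.96e-04). The exceptions, PDIQ-1A and 1 probe set of PDIL-2, did not pass, with changes of -0.28 and 0.88.

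Storage protein transcripts themselves showed no common direction. Of 15 probe sets, 4 (26.7%) were higher and 2 (13.3%) lower with centring, and 3 and 4 as deposited. The centred shares are near the 24.6% and 19.3% over all probe sets. BG7S-2, a basic globulin, gave 1030.3 and 2242 at 25 DAF and 84881 and 78136 at 50 DAF, a rise of 5.74 ± 0.51 (limma, adjusted p = 8.16e-05). The glycinin GY3 gave 34837 and 42198, then 2386 and 744, a change of -4.85. Beta-conglycinin CG-BETA-1 did not pass at either probe set. At 1 of them it gave 61621 and 67101 at 25 DAF and 75632 and 72582 at 50 DAF, all above the 99th percentile. Glycinin GY5 passed with centring at -0.76 (limma, adjusted p = 0.0468), but its highest adjusted p over the alternatives was 0.347. Protease inhibitors of the Kunitz and Bowman-Birk families had 2 (20%) of 10 probe sets higher and 3 (30%) lower under either scaling, with a median of 0.00. KTI3, a Kunitz trypsin inhibitor of the seed, gave 55395 and 75155 at 25 DAF and 70445 and 61622 at 50 DAF and did not pass (change 0.03). The similarly named but separate gene KTI-3 fell at both probe sets, with 13193 and 13313, then 491 and 855 at one of them. BBI-2, a Bowman-Birk inhibitor, gave 253 and 346, then 1191 and 3410.4, and passed as higher (limma, adjusted p = 0.0107) but not without replicate 1 of 25 DAF or replicate 2 of 50 DAF (highest adjusted p over all alternatives 0.11).

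Most probe sets of fatty acid synthesis fell, whereas no glycerolipid enzyme was called lower. Of 13 probe sets of fatty acid synthesis, 9 were lower and 2 higher (10 and 1 as deposited). ACCC-3, a subunit of the plastid acetyl-CoA carboxylase that starts the pathway, gave 8980.4 and 7365 at 25 DAF and 1254 and 954 at 50 DAF. KASII-A, a condensing enzyme, gave 5211 and 5174, then 1552 and 1594. WRI1B, of the WRINKLED1 type that activates this pathway in Arabidopsis, gave 1396 and 1659, then 75.1 and 70. The 3 genes changed by -2.89, -1.72 and -4.39 in log2 (limma, adjusted p = 1.68e-04, 2.07e-04 and 4.25e-05). The desaturase SACPD-C did not pass, with a change of -0.09. Of 12 probe sets of glycerolipid and galactolipid enzymes, 6 were higher and 0 lower (4 and 0 as deposited). DGAT1A, which adds the last acyl chain to oil, gave 703 and 967 at 25 DAF and 5559.7 and 4779 at 50 DAF, a rise of 2.64 ± 0.26 (limma, adjusted p = 1.12e-04). LOC100527582, with the synonym DGAT3-2, stood at 860.0 and 1049, then 12646 and 16377.

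Lipoxygenases, which oxidise polyunsaturated fatty acids, were lower in 15 of 26 probe sets and higher in 1 (17 and 1 as deposited), with a median change of -3.06. VLXB, a vegetative lipoxygenase, gave 4431 and 3458 at 25 DAF and 17.8 and 60.2 at 50 DAF, and LOX7 gave 2019 and 1363, then 54.4 and 6.36. Of the seed lipoxygenases, LOX1.1 gave 49141 and 58887, then 46999.7 and 48858, and did not pass, nor did LOX3 at either probe set, whereas LOX2 fell by 1.68 on the log2 scale. In 14 of the 26 probe sets the mean signal at 50 DAF was under 50. The 6 chlorophyll a/b binding probe sets of the study annotation, all selected there for changing over time, were lower, with changes from -6.39 to -4.33. The wider symbol class of light-harvesting, photosystem and Rubisco activase genes had 9 of 21 probe sets lower and 2 higher under either scaling, with a median of -0.30, and of the 5 probe sets of CAB3, 3 were lower and 1 higher.

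Aquaporins, channels for water and small solutes, were lower in 24 of 47 probe sets and higher in 5 (26 and 4 as deposited), with a median of -1.33, and 3 were higher without replicate 2 of 25 DAF or without either 50 DAF replicate. PIP1-6, of the plasma membrane type, gave 3752 and 3236 at 25 DAF and 84.1 and 14.6 at 50 DAF. PIP2-4 gave 847 and 910.3, then 21 and 48.3. Both ended at a mean under 50, too low to size their falls. The fall of PIP1-6 passed (limma, adjusted p = 0.00353) but not without moderation of the variances (adjusted p = 0.0718). PIP1-10 went the other way, with 19874 and 22379.5, then 48312 and 44103, a rise of 1.13 ± 0.23 (limma, adjusted p = 0.00376). PIP1-7, with 44382 and 58071 at 25 DAF and 74975 and 65042 at 50 DAF, did not pass (limma, adjusted p = 0.16). Of 15 probe sets of 14-3-3 proteins, which bind phosphorylated partners, 9 were lower and 1, of GF14B, higher under either scaling, though the rise of GF14B was lost after quantile normalization (limma, adjusted p = 0.0634). GASA peptides, named for their response to gibberellin in Arabidopsis, were lower in 9 of 20 probe sets and higher in 2 (11 and 0 as deposited). GASA12 gave 35645 and 38537 at 25 DAF and 137 and 348 at 50 DAF.

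**Figure D3:**
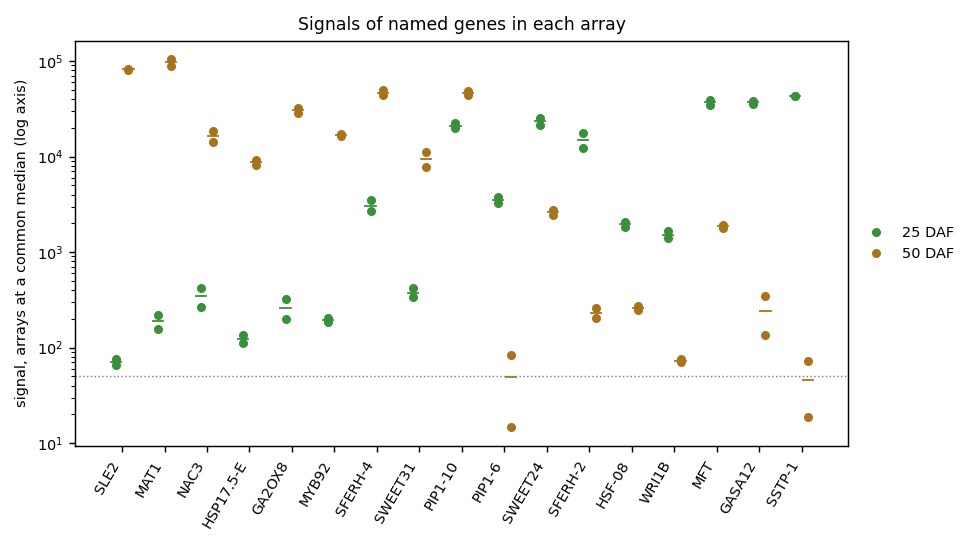
Signals of 17 named genes on a log axis, arrays scaled to a common median, with a point per array and a line at the mean of the 2 arrays at 25 DAF (green) and at 50 DAF (brown), and a dotted line at a signal of 50. For each gene the 2 ages do not overlap, as was the case for 73.7% of all probe sets.

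Genes were named for the largest changes in each direction of a family, so the opposite pairs below follow from that choice. Of 17 probe sets of SWEET and other sugar transporters, 4 were higher and 6 lower (2 and 6 as deposited). Of 10 ferritin probe sets, 1 was higher and 4 were lower (1 and 6 as deposited). The sugar exporter SWEET31 gave 416 and 336 at 25 DAF and 7822 and 11173 at 50 DAF, while SWEET24 gave 21634 and 25307, then 2443 and 2753. Ferritins store iron, and SFERH-4 gave 3468 and 2664, then 43819 and 49167, while SFERH-2 gave 17742 and 12385, then 206 and 259. In each pair both changes passed, at 4.64 and -3.17 for the SWEET genes and at 3.93 and -6.01 for the ferritins, but the rise of SFERH-4 was lost without moderation of the variances (limma, adjusted p = 0.0527). Among glutathione transferases, which conjugate reactive compounds, 21 of 58 probe sets were higher and 8 lower (16 and 9 as deposited), and 14 were higher without replicate 1 of 50 DAF. GST24 gave 938 and 1194 at 25 DAF and 54689.7 and 50966 at 50 DAF, whereas GSTU3 (LOC547576) gave 17299 and 16413, then 39.9 and 156. GLYI-19, a glyoxalase that removes methylglyoxal, gave 1.31 and 98.4 at 25 DAF, too low and uneven to size its rise, and 24697 and 34652 at 50 DAF. That rise passed (limma, adjusted p = 0.00196) but not without such moderation (adjusted p = 0.0564).

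Single genes of gibberellin and jasmonate moved far. Of 9 probe sets of gibberellin enzymes and DELLA proteins, 5 were higher and 3 lower (4 and 3 as deposited). GA2OX8, a gibberellin 2-oxidase, which inactivates gibberellin, gave 325 and 199.7 at 25 DAF and 28790.4 and 32109 at 50 DAF, a rise of 6.90 ± 1.05 (limma, adjusted p = 7.61e-04). GA20OX3, an oxidase of gibberellin synthesis, gave 315 and 339, then 50.2 and 7.01. GAI2, counted there among the DELLA proteins, was also lower, with 635 and 875, then 191 and 282, a change of -1.68. Of 21 probe sets of jasmonate synthesis and response, 9 were lower and 4 higher (9 and 3 as deposited), with a median of -1.33. COI1, the jasmonate receptor subunit, gave 458 and 538, then 14459 and 15246, while AOC3, an allene oxide cyclase of jasmonate synthesis, gave 1062 and 845, then 27.7 and 47.9. MFT, a relative of the flowering signal FT that acts in seed dormancy in Arabidopsis, gave 34726 and 38925, then 1943 and 1779.7. The changes of all these named genes passed under both scalings, with log2 changes of 4.90 for COI1 and -4.31 for MFT. GA20OX3 and AOC3 ended too low to size their falls. In the study annotation, the protein phosphatase 2C of Arabidopsis locus AT5G59220 gave 105 and 168, then 6484 and 6067.

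Among transcription factor families, NAC factors, plant-specific regulators of senescence and stress, had the highest median change, 3.52. Of 41 NAC probe sets, 22 were higher and 2 lower (21 and 5 as deposited). NAC3 gave 269 and 423 at 25 DAF and 14264 and 18531 at 50 DAF, with all 5 of its probe sets higher. NAC6 gave 563 and 663, then 4.05 and 18.3, and passed as lower (limma, adjusted p = 6.74e-04), though the later signals are too low to size its fall. AP2, ERF and DREB factors, many of which act in drought responses, were higher in 12 of 24 probe sets and lower in 1 with centring. The higher count was 6 as deposited, and 6 or 7 when replicate 1 or 2 of 50 DAF was left out. DREB1 stood at 1815 and 2196, then 20671 and 22978. MYB factors were higher in 36 (32.7%) and lower in 18 (16.4%) of 110 probe sets, against 24.6% and 19.3% of all probe sets, and in 28 and 20 as deposited. Fewer passed when any 1 array of the 2 ages was left out, most so for the lower ones without either 25 DAF array. MYB92 gave 204 and 187, then 17088 and 16282, and MYB172 gave 2889.9 and 2640.0, then 81.7 and 9.09. Of 104 WRKY probe sets 22 (21.2%) were higher and 9 (8.65%) lower with centring, and 18 and 16 as deposited. Both centred shares were below the 24.6% and 19.3% over all probe sets, and 46 of the 104 had a mean signal under 50 at 25 DAF. Both WRKY counts dropped further when any 1 array of the 2 ages was left out. Of 103 bZIP probe sets 29 (28.2%) were higher and 24 (23.3%) lower with centring, near the 24.6% and 19.3% over all probe sets. As deposited, 21 were higher and 28 lower, a turn that all probe sets also showed, with 17% and 26.8%. Leaving out replicate 1 of 25 or of 50 DAF gave 17 or 18 higher bZIP probe sets, and leaving out replicate 2 of 25 DAF gave 15 lower ones.

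Classes were also formed from the annotation in the part of the study's transcript table at hand. It holds 1998 probe sets, all of them selected by the study for changing over time, and 1592 were higher and 264 lower, with a median of 1.55. Counts of its classes are therefore read against those 1592 and 264 of 1998, and give no independent evidence of direction. As deposited, the median of the table was 1.09. Of 79 protein kinase probe sets, 67 were higher and 8 lower (62 and 9 as deposited). Of 72 in the ubiquitin system and RING finger group, 66 were higher and 1 lower (52 and 2 as deposited). As in the whole table, most were higher. RNA binding and splicing proteins had 49 of 53 higher and 1 lower (37 and 3 as deposited). Ribosomal proteins went against the table, with 16 of 27 lower, 6 higher and a median of -0.69. The kinase of locus AT5G25110, annotated as calcium/calmodulin-dependent, gave 64.3 and 30.4 at 25 DAF and 6255 and 8214 at 50 DAF. The ribosomal protein L27A of AT1G70600 gave 2398 and 2688, then 224 and 369. An aspartyl protease (AT1G03220) gave 21.7 and 13, then 4556 and 6845, and a chitinase (AT4G19810) 33 and 45.3, then 21552 and 22919.

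Fewer probe sets were called at 45 than at 50 DAF. Against 25 DAF, 1079 probe sets (2.87%) were higher and 1180 (3.14%) lower at 45 DAF with centring, beside 9238 and 7266 at 50 DAF. These counts share the 25 DAF arrays, and the 45 DAF replicates were more variable, with a median SD of 0.4228 in log2 against 0.2266 at 25 and 0.264 at 50 DAF, and the part of that spread in the lower counts was not tested. Class medians stood at different levels along the way. For LEA and seed maturation proteins the median change against 25 DAF was 1.98 at 40, 2.21 at 45 and 3.92 at 50 DAF, and for lipoxygenases it was -3.22, -2.62 and -3.06. NAC factors stood at 0.17, 0.70 and 3.52 and heat shock genes at -0.55, -0.41 and 1.21. Protein disulfide isomerases stood at -0.59, -0.96 and -2.63. Differences between these classes in timing were not tested.

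**Figure D4:**
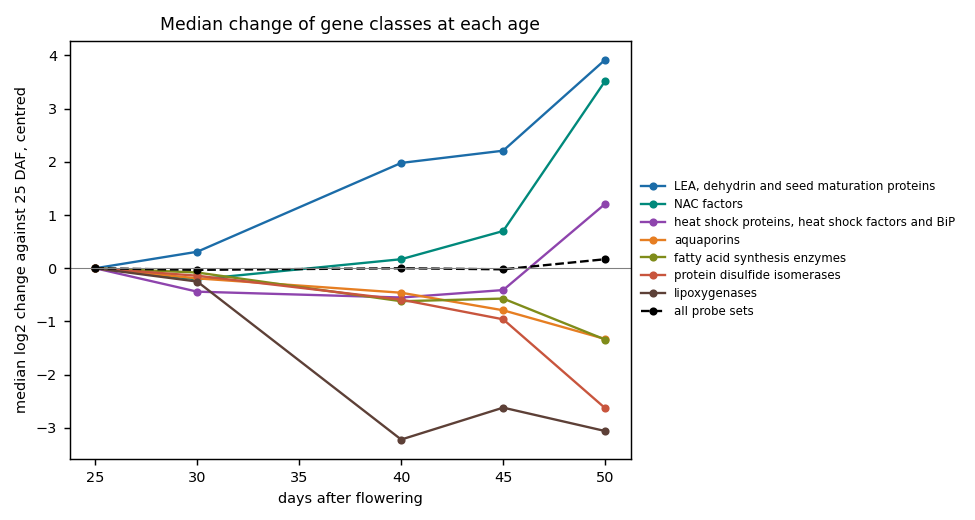
Median log2 change against 25 DAF at each age, with centring, for 7 gene classes and all probe sets (dashed), each point being a median over the probe sets of the class. Lipoxygenases lie at -3.22 by 40 DAF, while NAC factors lie at 0.70 at 45 DAF and at 3.52 at 50 DAF.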

How the data were processed

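Intensity values were deposited by the authors as Microarray Suite signals on a linear scale, 1 array per RNA sample, with no detection calls. The methods give global scaling to a set mean, whereas the deposited means were 1344.3 to 1425.5. The third age is 40 DAF in the labels and 35 in the paper's results text, and 40 was used. Log2 signals were used after subtracting each array's median, or without that step. Age and replicate number were fixed effects in limma 3.58.1 (R 4.3.3) over all 10 arrays, with a variance trend (residual degrees of freedom 4, prior 5.08), and p-values were adjusted by Benjamini-Hochberg over 37593 probe sets. The number of arrays limits the precision.

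Classes were patterns on gene symbols, or on the annotation of the part of the transcript table at hand, in which each probe set counts separately. Members and lists were chosen with earlier results of these data known. The symbol patterns were written after the gene names had been read, and were revised by the meaning of symbols after class counts had been seen, which changed the members of 9 of 56 classes. Cell type markers were matched by symbol or synonym. Named genes were the 12 largest rises and falls with an informative symbol, up to 3 in each direction of each symbol class and 2 of each annotation class, and the 5 largest rises and falls of the table without such a symbol, all called under both scalings, in both replicates, with a higher mean at or above the array median. Other genes were named after their values were seen, among them those that did not pass.

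Alternatives were quantile normalization, no replicate block, other variance priors, only the 4 arrays, a pseudocount of 50, a filter at the median signal, other thresholds, 1 probe set per gene, the class patterns before revision, and each array left out. The fit was tested on simulated data.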

Additional observations from a re-analysis of the deposited data

How the results depend on the processing

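The counts at 50 against 25 DAF stayed within 1.5 times of 9238 higher and 7266 lower under every alternative except leaving out replicate 2 of 25 DAF, where 4554 were lower. With 1 array left out, the higher calls ran from 6219 to 10019 and the lower calls from 4554 to 8070. The replicate number did not pair the samples (the replicate differences at the 2 ages correlated at -0.0281), and without the block 9502 were higher and 7483 lower. Of 311 named probe sets, 265 kept their call in every fit in which they were tested and 46 lost it in at least 1, with none reversed. The named probe sets had been chosen as called under both scalings with both replicates in the same direction. Their agreement as deposited, and largely the lack of reversals, follows from that choice. The direction with more calls differed as deposited in 9 of 56 symbol classes and 0 of 22 annotation classes, a tie counting as a change. Class counts of 2 or fewer often moved by over 1.5 times when 1 array was left out, and the single higher lipoxygenase was not called without any 1 array of 25 or 50 DAF. The patterns before revision moved 3 class counts by over 1.5 times, and 1 probe set per gene moved 44, since fewer probe sets were then counted. Low signals limit the size of the largest changes. The planned promoter motif counts, with their strand alternative, were not run, since no sequences were used here.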
